A study of Mus musculus with 5 samples.

Results

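Messenger RNA of 3 splicing gene families, named by the prefixes Hnrnp, Srsf and Snrp, was followed in CD4 T-cell libraries from colon and lymph node of mice in a colitis study. Every gene in the 4 count tables whose name began with one of these prefixes was taken (for Srsf, followed by a digit), except names marked as pseudogenes. This gave 38 of 10290 genes, of which 20 were hnRNP, 7 SR and 11 snRNP genes. The rule used names only, but it was set with earlier results of these data known. GENCODE M21 lists 20, 11 and 12 protein-coding genes under the same names, so Srsf1, Srsf4, Srsf9, Srsf12 and Snrpn were not listed in the tables used here.

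Splicing removes introns from pre-messenger RNA. The U1 and U2 small nuclear ribonucleoproteins (snRNPs) recognise the start of the intron and the branch point, and each is built on a ring of Sm proteins encoded by Snrpb, Snrpd1, Snrpd2, Snrpd3, Snrpe, Snrpf and Snrpg. SR proteins bind exons and recruit this machinery, whereas heterogeneous nuclear ribonucleoproteins (hnRNPs) coat nascent transcripts and often oppose them. In T cells, the best-known outcome of this balance is the choice of exons in the phosphatase CD45 after activation. Counts from the 3' end, as here, carry no information on which exons were joined.

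By the labels there was a control and a light group for each tissue. Light-treated mice were exposed on a spot of 4 square centimetres to a 980 nm laser (1.22 W, 80% duty), in sessions of 5 minutes held every 2 days. What the control mice received beyond the word control, and the strain, age and number of animals, are not given in the sources used here. Each group was 1 library, so no difference has a check between replicates and no p-value is given; group and library cannot be told apart. In bulk RNA, fewer cells of a type and less RNA per cell cannot be told apart either.

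Values for the 4 libraries are given in a fixed order, first the colon (control, then light) and then the lymph node (control, then light). Summed counts were 433663, 1959269, 971204 and 1068832. The barcode columns of a table repeat the same molecules, and divided by that repetition the sums came to 6180, 39283, 11500 and 21214 independent counts, called molecule-equivalents. Levels are counts scaled to a total of 1e+06 per library (CPM). Intervals are exact 95% Clopper-Pearson intervals on molecule-equivalents, except that a difference of 2 ratios carries a normal one; all cover counting error only. A floor of 3 molecule-equivalents was set, which is 485, 76.4, 261 and 141 CPM in the 4 libraries. The exact interval of a count of 0 reaches higher, to 597, 93.9, 321 and 174 CPM. The colon control stood apart: it shared at most 5 barcodes with any other table, whereas the other tables shared at least 373 with each other, and its T-cell markers other than the CD3 and CD4 genes summed to 429 CPM against 2625 to 8305 CPM elsewhere. Of the T-cell markers used in that library 4 had a count, and Cd2, Cd5, Cd28, Trac and Trbc1 were at 0. The CD3 and CD4 genes (Cd3d, Cd3e, Cd3g, Cd4) were not used there because their values repeated those of another table by column position. None of the 97 pairs of splicing gene lines repeated in that way, the highest correlation being 0.0929. In each of the other 3 libraries 12 of 13 T-cell markers had a count and Cd28 was at 0, and the 8 epithelial markers were at 0 throughout.

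Of the 38 genes, 8, 31, 26 and 36 had a count. The 6 genes counted in all 4 libraries were Hnrnpc, Hnrnpd, Srsf7, Snrpb, Snrpb2 and Snrpe. A level of at least 3 molecule-equivalents was reached by 1, 22, 8 and 17 genes. Over all 4 libraries 26 genes reached it somewhere (13 hnRNP, 5 SR and 8 snRNP), and their values are given below. The other 12 stayed under it everywhere, and the highest level among them was 270 CPM, which was 2 molecules of Srsf7 in the colon control.

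The promoters of 3 genes are shown, chosen among those on which the results turn, as the 250 bases before the RefSeq start (GRCm38.p6), because the snRNP genes were lower together in 1 light-treated library, in which Hnrnpd was higher. Hnrnpd lies at chr5:99955935-99978938 on the minus strand, Snrpb2 at chr2:143063039-143072853 on the plus strand and Snrpe at chr1:133603871-133610291 on the minus strand (GENCODE M21, mm10). The windows are chr5:99978939-99979188, chr2:143062819-143063068 and chr1:133610281-133610530, read 5' to 3' on the gene's own strand. Capitals mark the ETS core CCGGAAG and the CCAAT box on either strand. By GENCODE the last 30 bases of the Snrpb2 window and the last 11 of the Snrpe window already lie within the gene.
Hnrnpd: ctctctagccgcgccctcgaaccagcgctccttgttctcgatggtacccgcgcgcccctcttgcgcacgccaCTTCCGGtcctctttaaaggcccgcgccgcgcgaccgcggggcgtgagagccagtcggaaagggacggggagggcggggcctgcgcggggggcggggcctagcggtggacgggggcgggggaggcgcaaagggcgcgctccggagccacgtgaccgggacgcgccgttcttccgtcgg
Snrpb2: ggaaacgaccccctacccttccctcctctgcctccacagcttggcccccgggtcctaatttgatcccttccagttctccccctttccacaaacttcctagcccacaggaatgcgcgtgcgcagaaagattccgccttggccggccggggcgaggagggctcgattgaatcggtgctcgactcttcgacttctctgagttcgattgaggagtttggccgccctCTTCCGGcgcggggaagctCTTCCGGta
Snrpe: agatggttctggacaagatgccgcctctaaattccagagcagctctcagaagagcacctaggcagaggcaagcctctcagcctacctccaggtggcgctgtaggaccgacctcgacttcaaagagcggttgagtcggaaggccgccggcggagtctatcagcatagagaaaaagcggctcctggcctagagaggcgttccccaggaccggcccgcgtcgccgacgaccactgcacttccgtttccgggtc
Snrpb2 held 2 ETS cores, starting 28 and 9 bases before its start, Hnrnpd held 1, starting 178 bases before, and Snrpe held neither motif.

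A RefSeq promoter was matched for 34 of the 38 genes. The ETS core was found in 3 of 9 snRNP (33.3%), 3 of 7 SR (42.9%) and 2 of 18 hnRNP promoters (11.1%), against 7.05% of 27025 promoters, taking 1 per gene. CCAAT was found in 12 of 18 hnRNP promoters (66.7%), 3 of 7 SR promoters and 3 of 9 snRNP promoters, against 34.5% of all. The cAMP response element TGACGTCA occurred in 2 snRNP promoters, those of Snrpa and Snrpg, against 1.62% of all, and TATAAA in 11.8% of the matched promoters against 13.0%. Promoters of all 3 families were rich in CpG, with a median of 23 per window for hnRNP, 33 for SR and 14 for snRNP genes, where the median of all promoters was 6. These matches describe letters in a window, and no binding was measured.

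**Figure D1:**
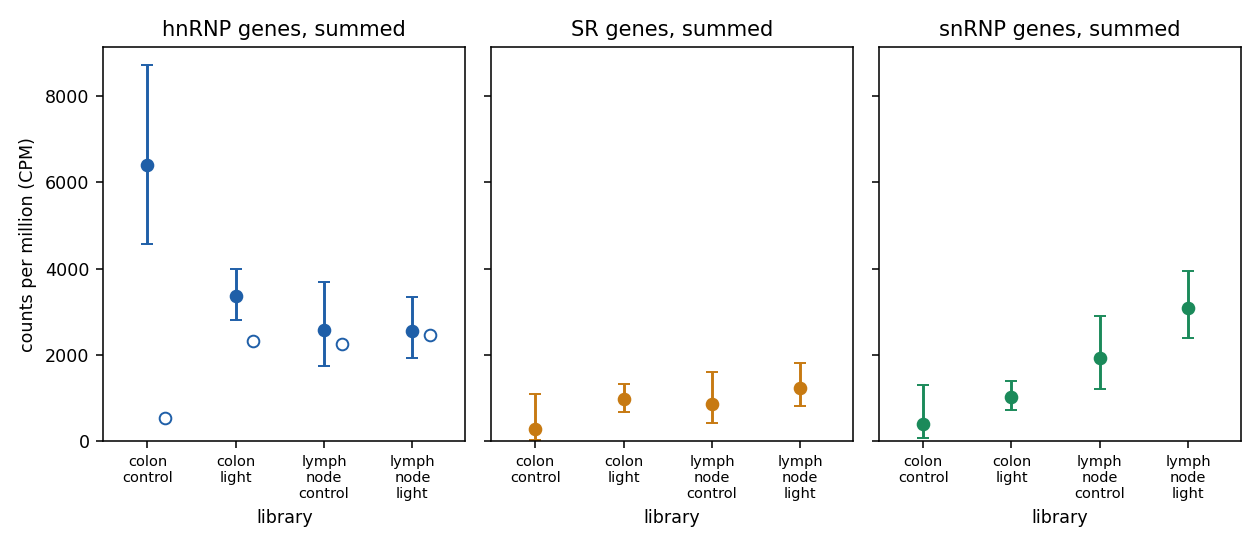
Summed level (CPM) of each family in each library; filled points are the sum of all members with exact 95% intervals for counting error, and open points are the hnRNP sum without Hnrnpd. The hnRNP sum is highest in the colon control only through Hnrnpd (6404 CPM with it, 542 CPM without), and the snRNP sum is highest in the lymph node light library (3095 CPM).

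The hnRNP family summed to 6404 CPM (4570 to 8724) and 3364 CPM (2816 to 3988) in the colon and to 2582 CPM (1739 to 3691) and 2564 CPM (1928 to 3340) in the lymph node, control first. Without Hnrnpd the sums were 542, 2324, 2252 and 2463 CPM, so that the colon control went from the highest library to the lowest. SR genes summed to 270 CPM (23.9 to 1082), 965 CPM (682 to 1324), 866 CPM (415 to 1594) and 1231 CPM (805 to 1802), with intervals that overlapped between all libraries. The snRNP sum was 404 CPM (66.9 to 1293), 1021 CPM (730 to 1389), 1916 CPM (1202 to 2899) and 3095 CPM (2393 to 3938). Its interval in the lymph node light library lay above those of both colon libraries and overlapped that of the lymph node control.

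The tissue contrast was drawn between the light-treated libraries, the pair with the most molecules. The 11 snRNP genes summed to 1021 CPM in the colon light and 3095 CPM in the lymph node light library, a log2 ratio of -1.58 (-2.20 to -1.01). The hnRNP sum gave 0.39 (-0.07 to 0.88), or -0.08 (-0.59 to 0.44) without Hnrnpd, and the SR sum gave -0.35 (-1.11 to 0.43). The snRNP ratio was lower than the hnRNP ratio by a log2 difference of -1.97 (-2.70 to -1.25), or -1.50 (-2.25 to -0.75) without Hnrnpd, and lower than the SR ratio by -1.24 (-2.15 to -0.32). These intervals exclude 0, and as differences within the same 2 libraries they do not depend on the library totals.

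Both libraries held T-cell transcripts, but not at the same level. The T-cell list summed to 3315 CPM in the colon light and 8944 CPM in the lymph node light library, a log2 ratio of -1.43 (-1.77 to -1.10). Myeloid markers summed to 2005 CPM against 507 CPM, with 4 of 9 genes counted in each; Itgam, S100a8, S100a9 and Adgre1 were at 0 in both. B-cell and plasma-cell markers summed to 629 CPM against 87.0 CPM, with 2 of 8 counted in each. The ribosomal RNA gene CT010467.1 took 28.4% of counts in the colon light and 15.3% in the lymph node light library. The part of these differences in the snRNP result was not tested. Over the 3777 genes counted in both libraries the median log2 ratio was -0.54, and relative to that median the snRNP ratio was -1.04 (-1.66 to -0.47), the hnRNP ratio 0.93 (0.47 to 1.42) and the SR ratio 0.20. With ribosomal RNA genes and Gm12374 left out of the totals they were -1.21 (-1.83 to -0.64), 0.76 (0.30 to 1.25) and 0.02. The snRNP interval thus stayed below 0 on each of the 3 scales. The hnRNP interval lay above 0 on the other 2 scales, but included 0 on them without Hnrnpd (0.46, -0.05 to 0.98, and 0.29, -0.21 to 0.81).

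Within the snRNP family, the Sm ring genes summed to 800 CPM (545 to 1132) in the colon light and 2368 CPM (1759 to 3119) in the lymph node light library, a log2 ratio of -1.55 (-2.26 to -0.89). The U2 proteins, Snrpa1 and Snrpb2, gave -1.50 (-3.31 to -0.01), from 158 and 477 CPM. The U1 proteins, Snrpa and Snrpc, gave -1.74 (-4.94 to 0.45), from 63.3 and 250 CPM, an interval that includes 0. The ratio was therefore negative in the ring and in both particle-specific groups, with the U1 group resting on 3 and 6 molecules. Relative to the median of genes counted in both libraries the ring interval stayed below 0 (-1.71 to -0.35), and that of the U2 proteins did not (-2.77 to 0.53).

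Snrpe, which encodes the Sm E subunit, was at 89.9, 194, 242 and 605 CPM in the 4 libraries, from 1, 9, 2 and 14 molecules. Its level in the lymph node light library was the highest, and the ratio of colon light to lymph node light was -1.56 (-3.15 to -0.24). Snrpg (chr6:86371304-86379328, plus strand), which encodes Sm G, was at 0, 170, 212 and 547 CPM, with the same contrast at -1.60 (-3.31 to -0.19). Snrpb2, the U2 protein B'', was at 129, 52.6, 212 and 356 CPM from 1, 3, 3 and 9 molecules, with -2.43 (-5.98 to -0.43). These were the 3 snRNP genes whose own interval lay below 0. Relative to the median of genes counted in both libraries none of the 3 did. The upper ends were 0.31 for Snrpe, 0.35 for Snrpg and 0.11 for Snrpb2. Without them the family sum still gave -1.37 (-2.22 to -0.59), a check added after their values were seen.

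The remaining snRNP genes with a count in either light-treated library had intervals that included 0. Snrpd3, for Sm D3, was at 0, 311, 359 and 534 CPM, with a ratio of -0.75 (-2.07 to 0.52) on 17 and 14 molecules in the light-treated libraries. Snrpd1, for Sm D1, was at 0, 49.0, 340 and 275 CPM, and its interval reached just past 0 (-2.15, -5.92 to 0.04). Snrpb, for Sm B and B', was at 184, 75.0, 146 and 304 CPM. Among the particle-specific proteins, Snrpa1 (U2 A') was at 0, 105, 0 and 121 CPM and Snrpc (U1 C) at 0, 63.3, 0 and 177 CPM. Colon light was below lymph node light for each of these 5 genes.

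**Figure D2:**
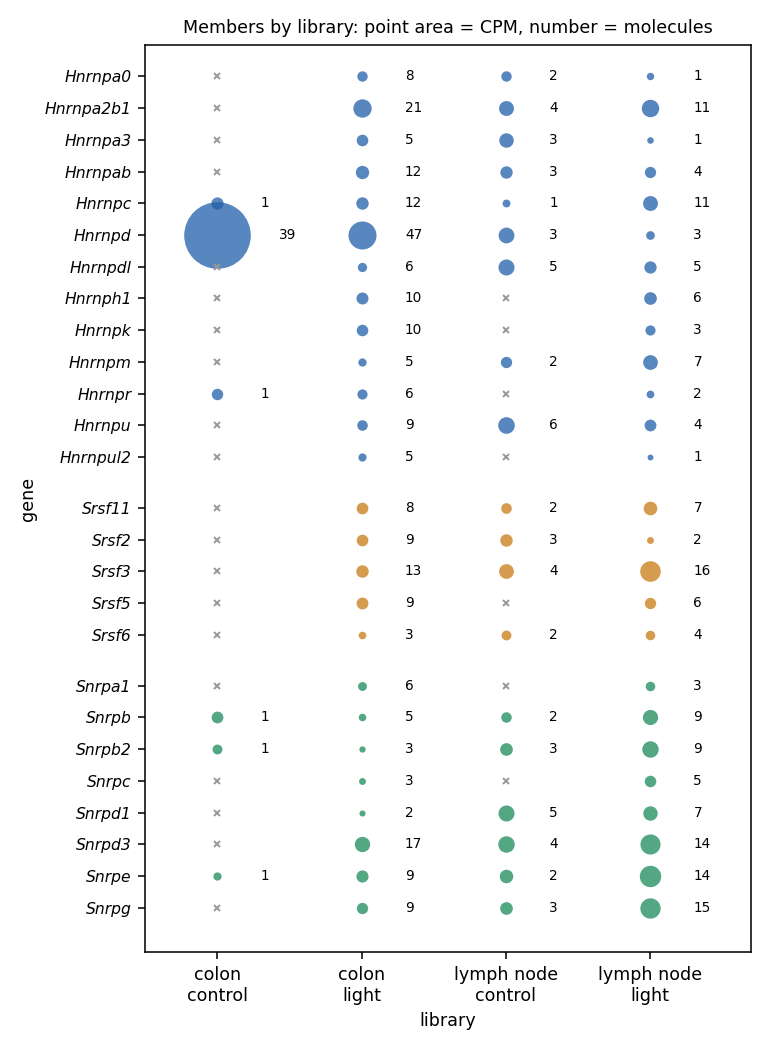
Level of the 26 genes with at least 3 molecule-equivalents in some library; point area is proportional to CPM, crosses are counts of 0, and the number beside a point is the number of molecules to the nearest whole (38.68 for Hnrnpd in the colon control, where the solution was not exact). Hnrnpd is larger in the colon than in the lymph node libraries, and 7 of the 8 Snrp genes shown are largest in the lymph node light library. The choice of genes favours this, since Snrpb, Snrpb2 and Snrpc reached 3 molecule-equivalents only in that library. No share over all genes stands beside this count, so it is not read as a result about the family. Snrpa, Snrpd2 and Snrpf, not shown, were highest in the lymph node control.

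Hnrnpd encodes AUF1, which binds AU-rich elements of messenger RNAs and sets their stability. It was at 5862, 1040, 331 and 100 CPM, higher in both colon libraries than in either lymph node library, and it made up 91.5% (control) and 30.9% (light) of the family's counts in the colon. In the colon light library 47 molecules were recovered in 35 column patterns, with at most 4 in any pattern, against 3 molecules in each lymph node library. Colon light exceeded lymph node light by 3.18 (1.48 to 6.34) on the log2 scale, and colon control exceeded lymph node control by 3.93 (2.64 to 6.16). Both tissue contrasts thus had intervals above 0, and they share no library. The second rests on the colon control, which stood apart in barcodes and T-cell markers and whose Hnrnpd line was not solved exactly. Among all genes with at least 5 molecule-equivalents, 3.59% had an interval above 0 in the light-treated pair and 18.7% in the control pair. The antisense gene Gm17092 shares 1173 bases with Hnrnpd and had 48.5 CPM in the colon light library only; whether counting used the strand was not given in the sources used here.

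Hnrnpd was the exception in its family. Hnrnpa2b1, an A/B-type protein that binds splice sites and carries RNA, was at 0, 447, 294 and 403 CPM. Of the other A/B genes, Hnrnpa3 was at 0, 179, 277 and 57.1 CPM, Hnrnpab at 0, 236, 203 and 168 CPM and Hnrnpa0 at 0, 143, 143 and 73.0 CPM. The A/B group together gave 0.59 (-0.29 to 1.56) between colon light and lymph node light, from 1062 and 702 CPM. Hnrnpdl, the close relative of Hnrnpd, was at 0, 114, 341 and 199 CPM with a ratio of colon light to lymph node light of -0.72 (-3.09 to 1.52), an interval that overlaps that of Hnrnpd.

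Hnrnpc, whose product binds nascent RNA and stays in the nucleus, was at 198, 204, 82.4 and 294 CPM. Hnrnpm was at 0, 90.3, 170 and 287 CPM, and its ratio of colon light to lymph node light was the lowest among the hnRNP genes with at least 5 molecule-equivalents, at -1.51 (-4.07 to 0.46). Hnrnpu, which also organises chromatin, was at 0, 148, 367 and 184 CPM; the opposite-strand gene Cox20 shares 1586 bases with it and had 138, 211 and 88.9 CPM in the last 3 libraries. Hnrnpc and Hnrnpm were highest in the lymph node light library and Hnrnpu in the lymph node control, and no interval between the light-treated libraries excluded 0. Hnrnph1, which binds runs of G, was at 0, 190, 0 and 212 CPM. Hnrnpk, which binds runs of C, was at 0, 177, 0 and 137 CPM. Hnrnpr was at 173, 137, 0 and 80.5 CPM and Hnrnpul2 at 0, 89.3, 0 and 45.8 CPM. These 4 were listed at 0 in the lymph node control, where the interval of a count of 0 reaches 321 CPM. Hnrnpll, named after its values were seen because it directs CD45 exon skipping in T cells, was at 0 in both colon libraries and at 118 and 18.7 CPM in the lymph node libraries, from 2 molecules and 1.

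Among the SR genes, Srsf3 (chr17:29032628-29043373, plus strand), which links splicing to RNA export, was at 0, 207, 289 and 559 CPM. Lymph node light was the highest, from 16 molecules, and the ratio of colon light to lymph node light was -1.36 (-2.92 to -0.02). That interval ends just below 0 and, relative to the median of genes counted in both libraries, ended above it (-0.82, -2.38 to 0.52). Srsf2, which binds exonic enhancers, ran the other way at 0, 180, 206 and 62.7 CPM, with 1.31 (-1.18 to 5.92). Srsf5 was at 0, 187, 0 and 170 CPM, Srsf6 at 0, 76.6, 128 and 121 CPM and Srsf11 at 0, 181, 150 and 247 CPM. Without Srsf3 the SR ratio between the light-treated libraries was 0.17 (-0.78 to 1.20), so its sign rested on that gene. The sign also turned with the median of ratios as the scale (0.20) and with ribosomal RNA left out of the totals (0.02).

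**Figure D3:**
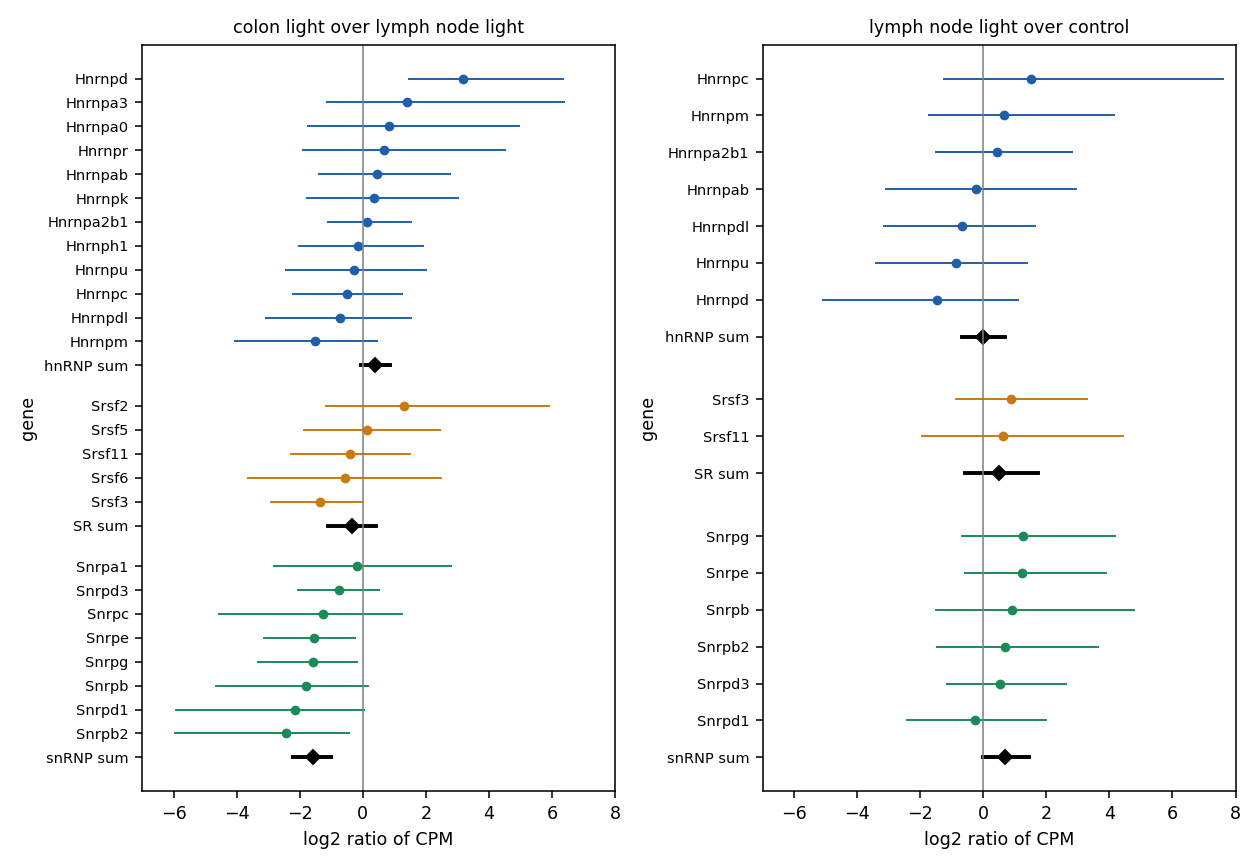
Log2 ratio of CPM for single genes that reached 5 molecule-equivalents over a pair of libraries (25 in the left panel, 15 in the right), with exact 95% intervals for counting error, and for the sum of each family (diamonds). In the left panel, scaled by library totals, all 8 snRNP genes lie below 0 and Hnrnpd lies at 3.18. Relative to the median of genes counted in both libraries, Snrpa1 does not lie below 0. In the right panel no gene's interval excludes 0.

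Of the 38 genes, 25 had at least 5 molecule-equivalents over the light-treated pair, a filter that a gene can pass through the library where it is high. Of these, 8 were at least 2-fold lower in colon light, where 25.5% of all 1614 genes passing the filter were, and 3 were at least 2-fold higher, against 16.9%. The 8 lower genes were 6 snRNP genes with Srsf3 and Hnrnpm. An interval below 0 was found for 4 of the 25 (10.2% of all genes) and an interval above 0 for 1, Hnrnpd (3.59% of all). All 8 snRNP genes passing the filter were below 0, as were 59.5% of all genes. Relative to the median of genes counted in both libraries Snrpa1 turned to 0.37. The median was -1.58 for the 8 snRNP genes, -0.41 for 5 SR genes, 0.24 for 12 hnRNP genes and -0.28 for all genes. At 20 molecule-equivalents only 5 of the 38 remained. Among those, Hnrnpd was at least 2-fold higher (13.5% of 304 genes), and Snrpe and Srsf3 at least 2-fold lower (19.4%).

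Light against control was compared within the lymph node, where both libraries held the T-cell list at similar sums (8944 CPM with light and 10513 CPM in the control, a log2 ratio of -0.23, -0.57 to 0.11). The snRNP sum was 3095 CPM with light and 1916 CPM in the control, a log2 ratio of 0.68 (-0.02 to 1.46), an interval that includes 0. The hnRNP sum gave -0.01 (-0.68 to 0.69) and the SR sum 0.49 (-0.59 to 1.73). The snRNP ratio exceeded the hnRNP ratio by 0.69 (-0.26 to 1.64), also within counting error. On the scale of library totals a difference of the family sums was therefore not detectable at this depth. The snRNP reading depended on the scale, and the median scale depended on which genes were taken. Over 2516 genes counted in both libraries the median was -0.48. Relative to it the snRNP ratio was 1.16 (0.46 to 1.94), the hnRNP ratio 0.47 (-0.20 to 1.17) and the SR ratio 0.97. For the 952 genes kept by the filter at 5 molecule-equivalents, the median was instead -0.05. The libraries differed in depth, and the part of depth in the median of -0.48 was not tested. The ratios relative to it are therefore no evidence of a light effect. Without ribosomal RNA genes and Gm12374 in the totals, the snRNP ratio was 0.76 (0.05 to 1.53) and the hnRNP ratio 0.07 (-0.61 to 0.76), so the sign of the hnRNP ratio turned as well. The difference between the 2 families, which no scale affects, had an interval that included 0.

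No gene of the 38 had an interval that excluded 0 between the lymph node libraries, and none reached 20 molecule-equivalents over the pair. At 5 molecule-equivalents 15 could be compared, and of all 952 genes at that level 1.47% had an interval above 0 and 3.15% below. Hnrnpc (1.52, -1.24 to 7.60), Snrpg (1.25, -0.67 to 4.18) and Snrpe (1.22, -0.59 to 3.89) were at least 2-fold higher with light, where 17.6% of all genes were. Hnrnpd (-1.47, -5.09 to 1.09) was at least 2-fold lower, where 13.1% were. Both shares of the members, 3 of 15 and 1 of 15, stood near or below those of all genes. The 6 snRNP genes in this set had a median of 0.80, with 5 above 0 (48.1% of all genes were), and the median of all genes was -0.05. Among snRNP genes below the filter, Snrpa, Snrpd2 and Snrpf were lower with light, and Snrpa1 and Snrpc were higher. This comparison and the tissue contrast above share the lymph node light library, so the positions of the snRNP genes in them are not independent. The F/H group (Hnrnpf, Hnrnph1, Hnrnph2 and Hnrnph3) was listed at 0 in the control and at 381 CPM with light, with a log2 interval that reached past 0 (lower end -0.09).

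**Figure D4:**
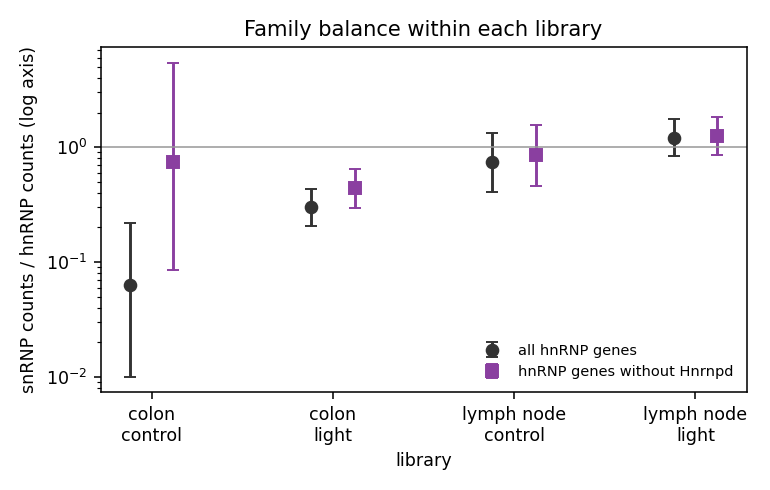
Summed snRNP counts divided by summed hnRNP counts within each library (log axis), with exact 95% intervals for counting error, for all hnRNP genes (circles) and without Hnrnpd (squares); the line marks equal counts. The ratio is 0.303 in the colon light and 1.21 in the lymph node light library, and the colon control moves from 0.0630 to 0.745 when Hnrnpd is left out.

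The balance of the families within a library is free of the library total. Counts of snRNP genes divided by counts of hnRNP genes gave 0.0630 (0.0101 to 0.217) and 0.303 (0.208 to 0.435) in the colon, and 0.742 (0.408 to 1.33) and 1.21 (0.830 to 1.76) in the lymph node, control first. Without Hnrnpd the values were 0.745 (0.0853 to 5.40), 0.439 (0.295 to 0.643), 0.851 (0.460 to 1.56) and 1.26 (0.860 to 1.84). Colon light and lymph node light did not overlap in either form, whereas colon light and the lymph node control overlapped in both. The colon control without Hnrnpd overlapped all others. The quotient compares libraries, not the abundance of the families, since genes differ in how well their 3' ends are captured.

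Both remaining comparisons involve the colon control, whose Gm12374 line held 17.7% of counts, against 2.47% or less elsewhere. Between colon light and colon control the hnRNP sum gave -0.92 (-1.45 to -0.38), but 2.06 (0.58 to 4.24) without Hnrnpd, and Hnrnpd itself gave -2.47 (-3.18 to -1.81). The SR sum gave 1.76 (-0.26 to 5.38) and the snRNP sum 1.29 (-0.44 to 3.99). The median of 1146 genes counted in both was -1.34. Relative to it these sums were 0.41 (-0.11 to 0.96) for hnRNP, 3.09 (1.08 to 6.72) for SR and 2.63 (0.90 to 5.32) for snRNP genes. The side of 0 taken by each of the 3 intervals thus turned on the scale. The scale in turn depended on the genes taken. For the 1064 genes kept by the filter at 5 molecule-equivalents, the median was 2.85, on the other side of 0. The A/B group was at 0 in the colon control, and at 1062 CPM in colon light, with a log2 interval whose lower end was 0.77. At 5 molecule-equivalents 17 of the 38 could be compared, and 13 of them were at least 2-fold higher in colon light, where 68.4% of all genes were, and 1, Hnrnpd, at least 2-fold lower, where 12.5% were. None of the 17 had an interval above 0 (7.8% of all genes), and Hnrnpd had one below 0 (8.83%). The T-cell list without the CD3 and CD4 genes, at 2625 CPM in colon light and 429 CPM in its control, gave a log2 ratio of 2.55 (0.94 to 5.12), and its part in these values was not tested.

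Between the control libraries, colon against lymph node, the hnRNP sum gave 1.29 (0.59 to 2.05) and -1.95 (-4.26 to -0.42) without Hnrnpd. The snRNP sum was lower in the colon, at -2.10 (-4.94 to -0.39), and the SR sum gave -1.50 (-5.35 to 0.69). The difference between the snRNP and hnRNP ratios was -3.39 (-5.40 to -1.38) with Hnrnpd and -0.15 (-2.66 to 2.35) without it. Hnrnpd was the 1 gene of the 38 with at least 5 molecule-equivalents over this pair and was at least 2-fold higher in the colon, where 22.6% of all genes were (65.5% were at least 2-fold lower). Its interval lay above 0, as did 18.7% of all genes, and 29.2% lay below. The T-cell list without the CD3 and CD4 genes differed by -4.11 (-6.78 to -2.60) between the same libraries, and its part in these values was not tested either.

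A wider list of 142 other splicing genes, spanning core spliceosome subunits, helicases and regulators was set beside the 38 genes, and 130 of these were in the tables. Their summed level was 17386 CPM in colon light and 19736 CPM in lymph node light, a log2 ratio of -0.18 (-0.36 to -0.0039), against -1.58 for the snRNP genes. This sum also turned with the scale. It moved to 0.36 (0.18 to 0.54) relative to the median of genes counted in both libraries, and to 0.19 (0.02 to 0.37) without ribosomal RNA. Among 12 with at least 20 molecule-equivalents, the interval of 1 lay above 0 (11.2% of all genes) and that of 2 below (24.7%). Ddx5, an RNA helicase, was at 946 against 290 CPM and higher by 1.65 (0.46 to 3.22). Ybx1, an RNA-binding protein of messenger particles, was at 474 against 1245 CPM (-1.36, -2.33 to -0.48), and Sfswap, a splicing regulator, at 1268 against 2462 CPM (-0.95, -1.55 to -0.37). Relative to the median of genes counted in both libraries the Ddx5 interval stayed above 0. Those of Ybx1 (upper end 0.06) and Sfswap (upper end 0.17) included 0.

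In the lymph node the same list gave -0.02 (-0.26 to 0.22) for light against control. Relative to the median of genes counted in both libraries, which depended on the genes taken, it gave 0.46 (0.23 to 0.70). None of its 6 genes at 20 molecule-equivalents had an interval that excluded 0 (5.32% of all genes lay above and 9.04% below). In the colon, 8 genes could be compared between light and control. Ddx5, Sf3b1 (a U2 subunit) and Mbnl1 (a regulator of alternative exons) were at 0 in the control and at 946, 754 and 687 CPM with light, with log2 intervals whose lower ends were 0.59, 0.25 and 0.10, where 39.9% of all genes lay above 0. Sfswap fell from 17202 CPM in the control to 1268 CPM with light (-3.74, -4.28 to -3.26) and Nono, a paraspeckle protein, from 2721 to 89.3 CPM (-4.62, -7.12 to -3.23), where 13.9% lay below. Sfswap was also higher in the colon than in the lymph node control, by 2.39 (1.86 to 2.99). It was the 1 listed gene tested there, where 28.1% of all genes lay above 0 and 67.4% below.

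Several of the 38 genes overlap other genes, and without a stated strand their counts cannot be separated. For overlaps on the same strand, strand would not separate them either. Such overlaps include Hnrnpm with March2 (1169 bases) and Srsf11 with Gm43362 (2470 bases). They also include Snrpa1 with Gm45213 (3269 bases) and Hnrnpul2 with AC129217.1 (4371 bases). Mettl23, on the strand opposite Srsf2, shares 3194 bases with it and had 74.1 and 145 CPM in the lymph node libraries, control first. Snrpd3 shares 422 bases with Gucd1, which had 24.5 CPM in the colon light library only. Genes of these families, Hnrnpa1 among them, have processed pseudogenes of near-identical sequence, and how reads matching several places were counted was not given in the sources used here.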

How the data were processed

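The deposited tables hold whole-number counts of genes over barcode columns, of which there were 384 and 382 in the colon tables and 382 and 379 in the lymph node tables (control first, as throughout). Per the labels' protocols, poly(A) RNA was primed with an oligo-dT probe that carried a sample barcode of 7 bases and a molecular identifier of 8 bases. FastQC, STAR 2.5.1a and mm10 are named in the submitters' processing notes. The counting step and its annotation are not given in the sources used here. A line without a gene name, 50.0% of all counts in each lymph node table, was left out.

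Counts were summed over the columns of a table. A molecule was taken to appear in many columns. Each gene was therefore solved as a sum, with no negative terms, of patterns over columns that at least 2 genes share. This was exact for 92.8%, 93.3%, 92.6% and 96.7% of genes and for 93 of 101 lines of the splicing genes, all 93 with a single solution. Exactly solved genes held 42.7%, 39.0%, 55.9% and 62.9% of counts. Summed counts divided by the size-weighted columns per molecule (70.2, 49.9, 84.4 and 50.4) give molecule-equivalents, which set every interval. In the colon control Cd3d, Cd3e, Cd3g, Cd4 and Foxp3 were left out, and Foxp3 also elsewhere, because their lines repeated another table's by column position (correlation above 0.5, misfit to the table's own patterns above 0.4).

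Log2 ratios of CPM used a prior of 0.5 molecule-equivalents, and a size limit of 2-fold was set. Single genes were compared at 20 molecule-equivalents over the pair and, as an alternative, at 5. Named were all members with at least 3 molecule-equivalents in some library and, from the other splicing list, up to 4 highest and 4 lowest per comparison whose interval excluded 0. The difference of 2 family ratios carries a normal interval on the log scale. The members and lists were chosen with earlier results of these data known, and the family balance, the difference of family ratios, the alternatives to them and the other scales for the wider splicing list were added after the data were seen. The median of ratios is taken over genes counted in both libraries, and intervals under another scale are the main ones moved by its shift. That median leaves out every gene at 0 in either library, and the libraries differed in depth. Other scalings, totals, priors, filters and barcode sets were tried. The scripts were tested on simulated data. A sheet of 16 barcodes for a further pooled sample was not used. Scripts ran under Python 3.11.15 with numpy 2.4.6 and scipy 1.17.1, and also pandas 2.3.3 and, for figures, matplotlib 3.10.9.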

Additional observations from a re-analysis of the deposited data

How the results depend on the processing

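With 1 library per group nothing here has a replicate check, and no paired analysis was possible because each group is 1 library. Between colon light and lymph node light the snRNP ratio stayed below 0 under every scale, total, prior, unit and barcode set tried, and without its largest members (-1.83 to -1.04), and so did its difference from the hnRNP ratio (-2.07 to -1.50). With the median of ratios the intervals of Snrpe, Snrpg, Snrpb2 and Srsf3 in this pair came to include 0. The snRNP interval of lymph node light against control included 0 with library totals and lay above 0 with the median of ratios and without ribosomal RNA. In each comparison the median of ratios itself depended on the genes taken. The hnRNP ratio of colon light against lymph node light moved to 0.93 with the median of ratios and to -0.083 without Hnrnpd. Between colon light and colon control the hnRNP ratio turned to 0.41 with the median of ratios, to 2.33 with each recovered molecule counted once and to 2.06 without Hnrnpd, and the snRNP ratio minus the hnRNP ratio turned to -0.76 without Hnrnpd and -0.98 with molecules counted once. The Hnrnpd ratio of that pair moved to -1.13 with the median of ratios. Between the control libraries the hnRNP ratio turned to -2.23 with molecules counted once and -1.95 without Hnrnpd, and the snRNP ratio minus the hnRNP ratio moved to 0.055 and -0.15. Counting molecules once leaves out Hnrnpd in the colon control, whose line was not solved exactly, so these changes follow from its absence. Family sums in the colon control moved to 415 CPM (hnRNP, molecules once), 542 CPM (hnRNP without Hnrnpd) and 0 CPM (SR without Srsf7). Without ribosomal RNA genes and Gm12374 in the total, colon light held 5420 CPM of hnRNP, 1554 CPM of SR and 1645 CPM of snRNP counts. Leaving out the member of largest count gave 2324 CPM (hnRNP) and 709 CPM (snRNP) in colon light and 672 CPM (SR) in lymph node light, where molecules counted once gave 2314 CPM for snRNP genes. That value leaves out Snrpg and Snrpa1, whose lines were not solved exactly in lymph node light. Members at least 2-fold higher and lower changed with the filter: with at least 5 molecule-equivalents and with none they were 3 and 13 higher, 1 and 7 lower in lymph node light against control. In colon light against lymph node light they were 3 and 5 higher, 8 and 14 lower, with 1 lower under the median of ratios. In colon light against colon control they were 13 and 24 higher, with 5 lower without a filter and 0 with molecules counted once. Between the control libraries they were 3 higher and 19 lower without a filter, and 0 higher with molecules counted once. Shares over all genes were taken only with a filter and with library totals. The counts without a filter or on another scale therefore show how the settings act, and are no result about the 38 genes. The shared-barcode alternative was not run for the colon control, which shares at most 5 barcodes. At 485 CPM for 3 molecule-equivalents, the colon control cannot show most of the 38 genes.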
